A study of Canis lupus familiaris with 18 samples.

Results

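The genes described here had lower transcript levels in light than in the dark in dog kidney cells that carried bPAC, at a low and at a high dose, without a like difference in the parental cells. They were chosen by group means in CPM, the count of a gene's reads scaled to a common total of reads assigned to genes. For each cell line and light dose, a change L was taken as log2 of the illuminated mean plus 1 CPM over the dark mean plus 1 CPM. A gene belonged to the set where L was -1 or lower at both doses in bPAC cells, L was above -0.5 at both doses in parental cells, and its largest group mean was at least 10 CPM. The rule leaves out a list of 40 IDs, 2 of which met every other limit. This gave 116 genes, out of 5948 genes past the 10 CPM floor and 32220 gene IDs in the tables. They are 116 of 599 genes lowered at both doses in bPAC cells. Of the other genes, 306 had a parental L of -0.5 or lower at both doses as well, 163 at low light only and 14 at high light only.

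The libraries came from MDCKI, a dog kidney line that grows as an epithelial sheet, and from MDCKI with bPAC, an enzyme of bacterial origin that produces cyclic AMP when blue light reaches it. Both lines were grown in medium with 0.5% serum and without phenol red and, from 16 h after plating, spent 2 h without light, with a low dose or with a high dose. Parental cells gave 3 dark, 3 low light and 2 high light libraries, and bPAC cells gave 3 dark, 4 low light and 3 high light libraries. The labels give no light intensity, do not say whether the bPAC line is 1 clone, and do not say whether replicates came from different cultures. The p-values therefore reflect how far these libraries scatter, which may be technical.

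Cyclic AMP binds the regulatory subunits of protein kinase A and frees its catalytic subunits, which phosphorylate proteins in the cytoplasm and transcription factors in the nucleus. In the collecting duct of the kidney, whose epithelium MDCK cells resemble, this second messenger carries the signal of vasopressin to water channels. Lower transcript levels after a rise in cyclic AMP can come from less transcription or from faster decay, and levels alone do not separate these. In such bulk libraries, fewer cells of a type and less RNA per cell cannot be told apart either. The deposited tables hold Ensembl IDs without gene symbols. Members are therefore given by ID, are ordered by level and response, and have no function stated.

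Each library held between 2638511 and 9610144 reads in genes. Libraries within a group differed in how far the members sat from the dark mean of their line. The 3 dark bPAC libraries lay close together, with a median member at 0.05, 0.07 and -0.18 on the log2 scale. In bPAC low light the median member stood at -1.72, -0.73, -1.12 and -2.33 in replicates 1 to 4, and in bPAC high light at -1.55, -2.0 and -1.33. The dark parental libraries also stood apart from each other, at 0.50, -0.13 and -0.61, whereas the median over all genes past the floor was between -0.06 and 0.03 in them. Parental dark 1, the most deeply sequenced library, held the highest level of its group for 96 members (82.8%, against 29.8% of all genes past the floor). Parental dark 3 held the lowest for 93 members (80.2%, against 31.7% of all). Since the limit on parental change is set against these dark libraries, membership moved with them, and values without them are given below.

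**Figure D1:**
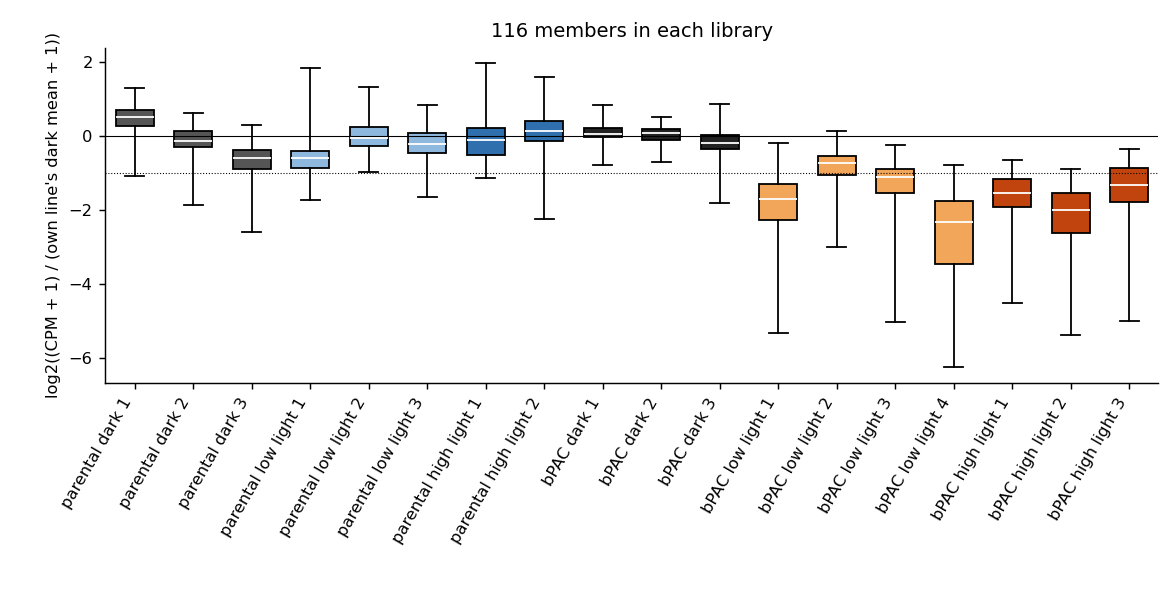
Change of the 116 members in each of the 18 libraries against the dark mean of the same line, as log2((CPM + 1) / (dark mean + 1)); boxes span the quartiles with the median as a white line, whiskers the lowest and highest member, and the dotted line marks -1. Medians lie between -0.73 and -2.33 in the illuminated bPAC libraries and between -0.60 and 0.12 in the illuminated parental libraries.

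The members covered a wide range of abundance. In bPAC dark the group mean was under 20 CPM for 26 members, 20 to 100 CPM for 59 and 100 CPM or more for 31, of which 7 reached 500 CPM. The median member stood at 49.5 CPM in bPAC dark, 17.5 CPM in bPAC low light and 15.4 CPM in bPAC high light. The same median was 29.2 CPM in parental dark, 24.7 CPM in parental low light and 32.5 CPM in parental high light. Summed over all members, they took 1.66% ± 0.276 (SD, n = 3) of gene reads in bPAC dark, 0.590% ± 0.274 (SD, n = 4) in low light and 0.514% ± 0.0934 (SD, n = 3) in high light. In parental cells the share was 1.31% ± 0.541 (SD, n = 3) in the dark, 1.42% ± 0.282 (SD, n = 3) in low light and 1.60% ± 0.432 (SD, n = 2) in high light. The rule selected the members on these differences between light and dark, so they are given as a description and carry no test.

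Most differences were modest. The median L was -1.30 at low light and -1.51 at high light in bPAC cells, where the medians over all genes past the floor were -0.09 and -0.23. Of the 116 members, 51 lay between -1 and -1.5 at both doses. A value of -2 or lower was reached by 9 members at low light, by 25 at high light and by 7 at both. Scaling by TMM, which sets library sizes from the bulk of genes rather than from all reads, shifted L upwards by 0.12 at low light and 0.32 at high light. On that scale all 116 members still had L below 0 at both doses, with medians of -1.21 and -1.23, but 97 and 81 of them were at -1 or lower.

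The 2 members with the lowest mean L over both doses were ENSCAFG00000029442 and ENSCAFG00000001254. ENSCAFG00000029442 measured 183, 179 and 62.4 CPM in the bPAC dark libraries, 2.57, 16.8, 7.55 and 0.878 CPM in low light, and 5.31, 2.44 and 3.79 CPM in high light. No illuminated bPAC library reached the lowest dark one. Its bPAC means were 142 ± 68.7 CPM (SD, n = 3) in the dark, 6.94 ± 7.13 CPM (SD, n = 4) at low light and 3.85 ± 1.44 CPM (SD, n = 3) at high light, which gave L of -4.17 and -4.88. In parental cells the same gene measured 101, 23.0 and 6.29 CPM in the dark, 19.8, 54.7 and 22.4 CPM in low light, and 43.6 and 31.2 CPM in high light. These parental groups overlapped, and their dark libraries alone spanned the values of both illuminated groups.

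ENSCAFG00000001254 was about as abundant in the dark in both lines, with 35.2, 43.2 and 68.7 CPM in bPAC cells and 32.5, 66.2 and 37.7 CPM in parental cells. Low light libraries of bPAC cells held 3.50, 8.27, 0.871 and 0.878 CPM, and high light libraries 2.94, 1.11 and 2.65 CPM. All of these were below every parental library, where low light gave 18.3, 28.5 and 77.7 CPM and high light 51.4 and 140 CPM. Its L was -3.51 and -3.95 in bPAC cells and -0.13 and 1.05 in parental cells. The low light values rest on few reads, between 3 and 39 per library.

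One more member, ENSCAFG00000007247, named after its values were seen, was at -3 or lower at both doses. It measured 486, 290 and 79.9 CPM in bPAC dark, 51.2, 56.0, 7.84 and 9.36 CPM in low light and 37.0, 28.0 and 7.96 CPM in high light. Its parental libraries were the most scattered of the 3, from 26.3 to 204 CPM in the dark, from 29.3 to 306 CPM in low light, and at 194 and 18.7 CPM in high light. The bPAC light groups therefore did not overlap with their dark libraries, while each parental group held both low and high libraries. Its parental L of 0.97 at low and 0.30 at high light compares means of such mixed groups. In every group of both lines replicate 1 measured above the last replicate, and the cause of this order was not tested.

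The 2 most abundant members in bPAC dark were ENSCAFG00000020276 and ENSCAFG00000003459. ENSCAFG00000020276 measured 4353, 3140 and 2216 CPM in bPAC dark, 777, 1512, 828 and 469 CPM in low light, and 315, 294 and 346 CPM in high light. Every low light library lay under every dark library and every high light library under every low light library. Its parental libraries held 5497, 2043 and 2202 CPM in the dark, 4924, 6200 and 4150 CPM in low light, and 6280 and 4042 CPM in high light. Here the illuminated libraries were above 2 of the 3 dark libraries and on both sides of the third, with L of 0.65 and 0.67, against -1.85 and -3.34 in bPAC cells. This single gene supplied 0.324% ± 0.107 (SD, n = 3) of gene reads in bPAC dark and 0.0319% ± 0.00264 (SD, n = 3) in bPAC high light. Without it, the members' share still went from 1.33% ± 0.182 (SD, n = 3) in bPAC dark to 0.500% ± 0.231 (SD, n = 4) in low light and 0.482% ± 0.0912 (SD, n = 3) in high light.

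ENSCAFG00000003459 shows the modest response more typical of the set. It measured 1926, 2169 and 1686 CPM in bPAC dark, 397, 1312, 1116 and 128 CPM in low light, and 951, 558 and 1178 CPM in high light. All illuminated bPAC libraries were below the dark ones, but the low light libraries spread more than 10-fold and enclosed the high light ones. Its L was -1.38 and -1.10 in bPAC cells and -0.32 and -0.44 in parental cells, where the dark libraries held 1747, 944 and 791 CPM and the illuminated libraries 805 to 1175 CPM.

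**Figure D2:**
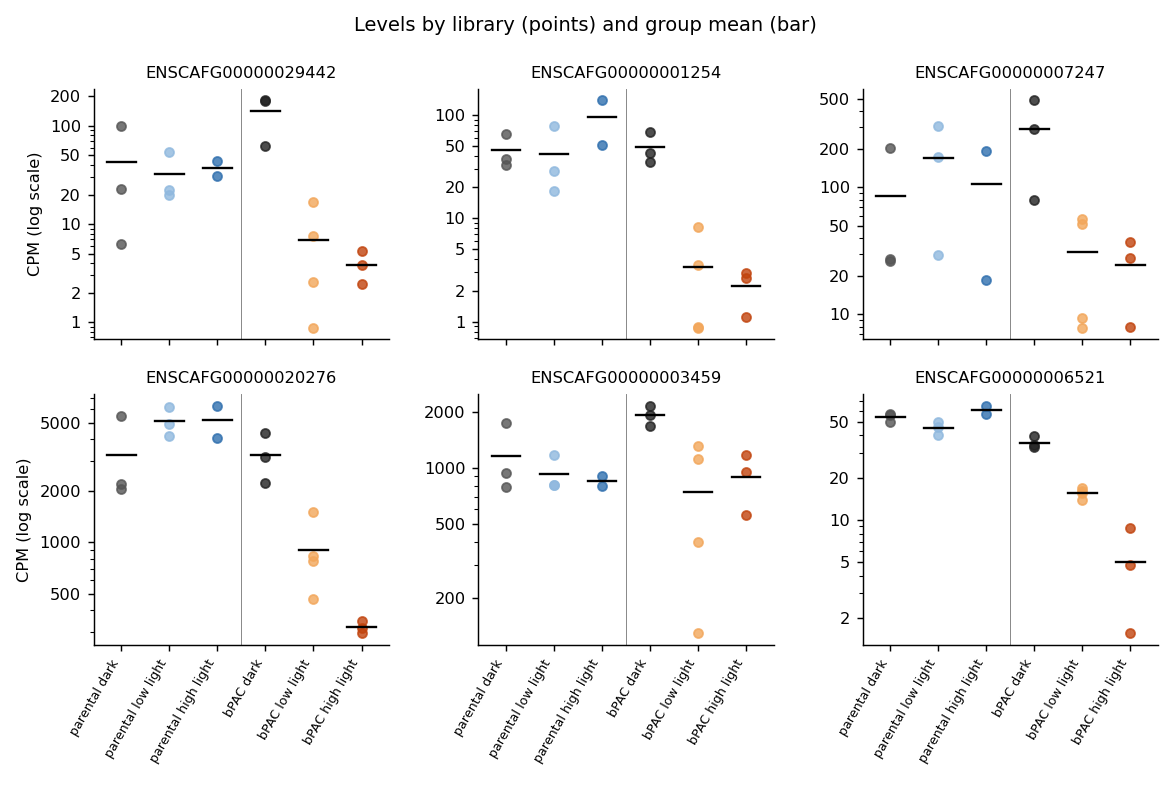
Level of 6 members in each library (points, CPM on a log axis) with the mean of each group as a bar; the vertical line separates parental from bPAC cells. In all 6 every illuminated bPAC library lies below the bPAC dark libraries, and ENSCAFG00000020276 and ENSCAFG00000006521 also have every high light library below every low light library.

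Counting libraries rather than means, 100 of the 116 members had every bPAC low light library below every bPAC dark library, against 29% of all genes past the floor. At high light 110 members did, against 35.7% of all, and 99 did at both doses, against 22.5%. In the fitted model (edgeR's quasi-likelihood test, adjusted over 8530 genes) 78 members passed as lower at low light, where 18.1% of all genes tested did. At high light 61 members passed as lower, against 11.9% of all. The rule used these comparisons, and nothing is read from these counts.

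Low light libraries were the least uniform. The coefficient of variation (SD over mean) of the median member was 0.184 in bPAC dark, 0.554 in bPAC low light and 0.338 in bPAC high light. Members at least 2-fold below the bPAC dark mean numbered 106, 33, 75 and 114 in low light replicates 1 to 4. Over all genes past the floor the shares were 19.9%, 8.09%, 10.6% and 26.0%, in the same order of libraries. In the high light replicates such members numbered 101, 114 and 78, with shares over all genes of 16.5%, 25.4% and 12.1%. The rule used the means of these libraries, and nothing is read from these counts. Low light 2 held the highest level of its group for 94 members (81.0%, against 28.9% of all genes past the floor), and low light 4 the lowest for 90 (77.6%, against 35.0%). Low light 4 held 6836729 gene reads and low light 2 held 4713423, and the part of depth was not tested. Without low light 1 and 4 the rule found 47 genes, 44 of them among the 116, and without low light 2 and 3 it found 176, which included 115 of them.

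The low and the high dose were also compared directly in bPAC cells. The rule did not set the doses against each other, but it bounded both against the dark. This leaves out genes lowered at 1 dose only. The counts of members are therefore shaped by the rule and are given as a description. Of the 116 members, 0 were higher and 1 was lower in high light at an adjusted p under 0.05 in edgeR's quasi-likelihood test, where 5.18% of all genes tested were higher and 5.03% lower. At an unadjusted p under 0.05 there were 5 members (4.31%), against 26.3% of all genes tested. Fitted log2 fold changes between the doses ran from -1.95 to 1.46 with a median of -0.07, against 0.00 over all genes tested, and 64 members were below 0 (55.2%, against 49.8% of all). By CPM means 77 members were lower in high light (66.4%, against 61.9% of all genes past the floor), and the CPM scale itself sits 0.20 lower than TMM in this comparison.

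The member that passed was ENSCAFG00000006521. It measured 32.9, 34.2 and 39.6 CPM in bPAC dark, 16.1, 15.5, 16.8 and 13.9 CPM in low light, and 4.75, 1.55 and 8.72 CPM in high light. The 3 groups did not overlap, and the low light libraries, which scattered for most members, lay close together for this one. Its log2 fold change from low to high light was -1.54 (SE 0.30, adjusted p = 0.00389, edgeR's quasi-likelihood test). All 3 of 3 high light libraries lay below 4 of 4 low light libraries, with no share over all genes made for this order. In parental cells ENSCAFG00000006521 held 55.8, 56.5 and 49.6 CPM in the dark, 40.5, 45.8 and 50.1 CPM in low light and 56.4 and 65.2 CPM in high light. The difference between the dose steps of the lines was -1.96 (SE 0.41). It did not pass in edgeR's quasi-likelihood test (adjusted p = 0.0715). Fitted on the 2 bPAC light groups alone the call was lost (adjusted p = 0.0630). ENSCAFG00000020276, described above, had a log2 fold change of -1.28 between doses (SE 0.40) and missed the threshold in edgeR's test (adjusted p = 0.0564).

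ENSCAFG00000015190, named after its values were seen, had the highest fitted change in the other direction, 1.46 (SE 0.72), which did not pass in edgeR's test (adjusted p = 0.218). It measured 52.9, 37.5 and 94.2 CPM in bPAC dark, 1.64, 11.5, 7.55 and 0.293 CPM in low light, and 12.7, 6.66 and 17.4 CPM in high light. Low and high light libraries overlapped, and the lowest of all values came from low light 4. Its parental levels stayed between 14.3 and 46.3 CPM.

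Parental cells were chosen to show little change, but the limit was on one side only. The median parental L of the members was -0.26 at low light and 0.03 at high light, against -0.06 and -0.03 over all genes past the floor. At low light 96 members had a parental L below 0, and 34 of these lay from -0.5 to -0.4, next to the limit. At high light 54 were below 0 and 4 lay that close to the limit. Parental L was below 0 at both doses for 51 members, below 0 at low and above 0 at high light for 45, and above 0 at both for 17. In the fitted model 0 members passed for parental low light against dark in either direction (1 at an unadjusted p under 0.05, or 0.862%, against 28.4% of all genes tested), where 11.4% of all passed. For parental high light 0 passed (2 at an unadjusted p under 0.05, or 1.72%, against 15.1% of all), where 0.176% of all did. The rule used both comparisons, and nothing is read from these counts.

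**Figure D3:**
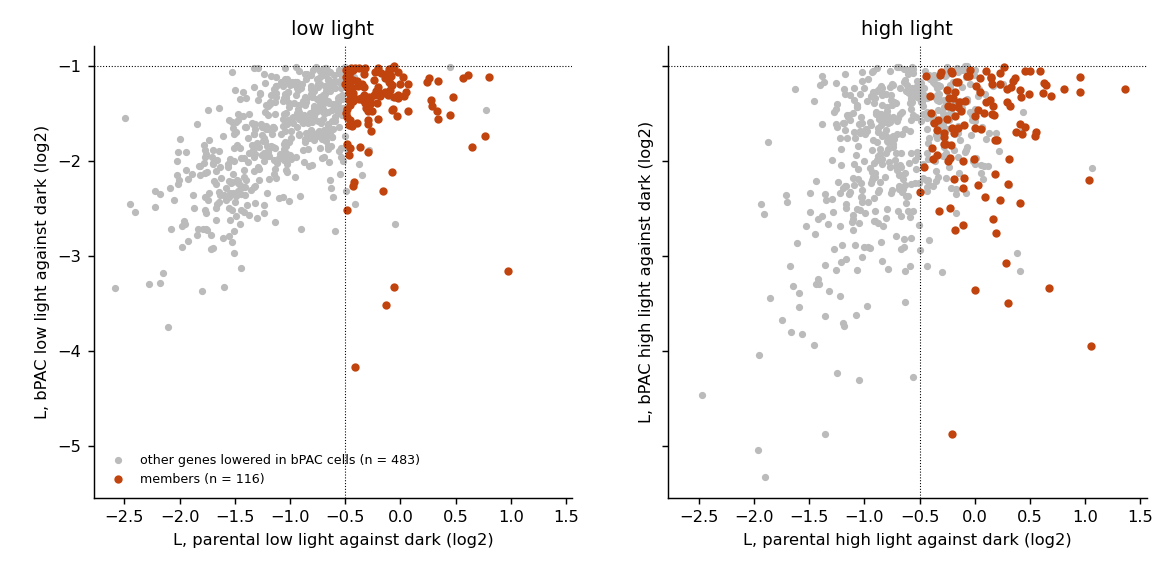
L in bPAC cells (vertical axis) against L in parental cells (horizontal axis) for the 599 genes lowered at both doses in bPAC cells, at low light (left) and high light (right); dotted lines mark the limits of -1 and -0.5. Many members sit just inside the parental limit at low light, where 34 lie between -0.5 and -0.4, and the other genes continue past it without a gap.

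The genes nearest each limit show how little separated members from their neighbours. At the parental low light limit of -0.5 the closest members had L of -0.4997 and -0.497, and the closest genes outside -0.5002 and -0.504. At the parental high light limit they had -0.492 and -0.459 inside and -0.526 and -0.558 outside. For bPAC low light the values were -1.001 and -1.016 inside and -0.999 and -0.998 outside, and for bPAC high light -1.008 and -1.039 inside and -0.997 outside. For the floor of 10 CPM they were 10.7 and 12.0 CPM inside and 9.68 and 9.32 CPM outside.

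Between low and high light in parental cells, 0 members passed in either direction by edgeR's quasi-likelihood test, by DESeq2 or by limma-voom. After adjustment 0.0117% of all genes tested passed in edgeR, 32 of 8530 in DESeq2 and 1 of 8530 in limma-voom. The rule did not set these groups against each other, but it bounded both against parental dark. Nothing is therefore read from these counts. At an unadjusted p under 0.05 there were 3 members (2.59%), against 12.7% of all genes tested. The fitted change had a median of 0.24 over the members and 0.02 over all genes tested. Below 0 were 24 of 116 members (20.7%, against 48.5% of all genes tested). With 2 libraries at high light, the spread in this comparison is largely borrowed from the other groups.

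Some members had higher means in light than in the dark in parental cells. A parental L of 0.5 or more was seen for 6 members at low light, for 14 at high light and for 4 at both. These 4, named after their values were seen, were ENSCAFG00000020276, ENSCAFG00000013762, ENSCAFG00000008937 and ENSCAFG00000032377. ENSCAFG00000013762 is the least certain of them: its parental dark libraries held 2118, 249 and 368 CPM, and its illuminated ones ranged from 425 to 2717 CPM. As for ENSCAFG00000007247, replicate 1 of each parental group measured above the last one, so its parental L compares means of mixed groups. ENSCAFG00000008937 went from a mean of 15.7 ± 10.4 CPM (SD, n = 3) in parental dark to 41.8 ± 0.118 CPM (SD, n = 2) in high light, while its bPAC means went from 40.9 ± 10.5 CPM (SD, n = 3) in the dark to 16.8 ± 7.24 CPM (SD, n = 3) in high light. Across all members, 3 had every parental high light library above every parental dark library, against 16.2% of all genes past the floor. Every parental low light library lay below every dark one in 4 members, against 19.6% of all. The limits on parental change bear on both counts, and nothing is read from them.

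A formal contrast of the lines, the difference between the light response of bPAC and of parental cells, repeats what the rule selected on and is described only. At low light 0 of the 116 members passed as lower in bPAC cells in edgeR's test, where 0.0117% of all genes tested did, and 39 members had an unadjusted p under 0.05 (33.6%, against 5.94% of all). At high light 7 members passed, where 0.399% of all did, and 56 had an unadjusted p under 0.05 (48.3%, against 13.9% of all). Nothing is read from these counts. Comparing lines at the same dose by library, 21 members had every bPAC low light library below every parental low light library, against 14.3% of all genes past the floor. At high light 86 members had every bPAC library below every parental one, against 38.2% of all. For members outside these counts, the libraries of the lines overlapped at that dose or lay in the opposite order. By means, 101 members were lower in bPAC than in parental cells at low light and 111 at high light, with no count over all genes made. The rule bounded the light means of both lines, and nothing is read from these comparisons at the same dose.

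The level of the members in the dark is part of how they were chosen: both dark groups are the reference of the rule, which favours genes with a high bPAC dark mean or a low parental dark mean. The values in the dark are therefore a description and support nothing about the lines. In the dark 101 of 116 had a higher mean in bPAC than in parental cells (87.1%), against 46.0% of all genes past the floor and 71.2% of the 306 genes lowered in both lines. The bPAC dark mean was at least 1.5-fold the parental dark mean for 58 members and at least 2-fold for 27 (23.3%, against 4.99% of all genes and 14.4% of those lowered in both lines). In the fitted model 4 members passed as higher in bPAC dark and 0 as lower in edgeR's test, where 3.61% of all genes tested were higher and 2.92% lower. At an unadjusted p under 0.05 there were 27 members (23.3%), close to the 21.6% of all genes tested. The median log2 fold change was 0.60 over the members and -0.01 over all genes tested. Without parental dark 1, the library in which most members were highest, 31 members were called (720 of 8480 genes over all). Without parental dark 2 or parental dark 3, 2 were (238 of 8492 and 224 of 8523 over all).

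Of those 4 members, the 2 with the largest difference were ENSCAFG00000015333 and ENSCAFG00000003467. ENSCAFG00000015333 held 5.62, 0.907 and 0.968 CPM in parental dark and 120, 101 and 33.8 CPM in bPAC dark, a fitted log2 difference of 4.81 (SE 0.72), with 3 of 3 bPAC libraries above 3 of 3 parental ones. In parental cells it remained between 1.18 and 3.69 CPM in light, where 4 to 16 reads supported each value. In bPAC cells it went to 43.9, 73.8, 33.4 and 12.7 CPM in low light and 27.3, 19.7 and 22.7 CPM in high light, still above every parental library. Low light and dark libraries of bPAC cells overlapped for this gene, and its parental L of -0.10 and -0.28 compares means of at most 2.50 CPM.

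ENSCAFG00000003467 held 14.5, 5.44 and 4.35 CPM in parental dark and 29.1, 32.5 and 17.3 CPM in bPAC dark, a fitted log2 difference of 1.62 (SE 0.46). In light its bPAC libraries held 2.63 to 12.1 CPM at the low and 3.77 to 7.27 CPM at the high dose, beside 4.14 to 6.46 CPM and 5.99 to 7.52 CPM in parental cells. In light the ranges of both lines thus overlapped. It no longer passed in 12 of 18 fits that left out 1 library. The other two members, named after their values were seen, were ENSCAFG00000030217, with a fitted log2 difference of 1.25 (SE 0.24), and ENSCAFG00000006743, with 1.04 (SE 0.30).

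The groups can also be set against parental dark, again as a description. The median member stood 0.58 above parental dark in bPAC dark on the log2 scale, 0.80 below it in bPAC low light (-0.80) and further below it in bPAC high light (-0.98). In parental light it stood at -0.26 and 0.03. A mean above parental dark in the dark and below it at both doses was found for 91 members, and 15 were below it in all 3 bPAC groups and 6 above it in all 3. At low light 48 members, and at high light 65, were under 0.5 times the parental dark mean. The rule bears on all of these counts, no share over all genes was made for them, and nothing is read from them.

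**Figure D4:**
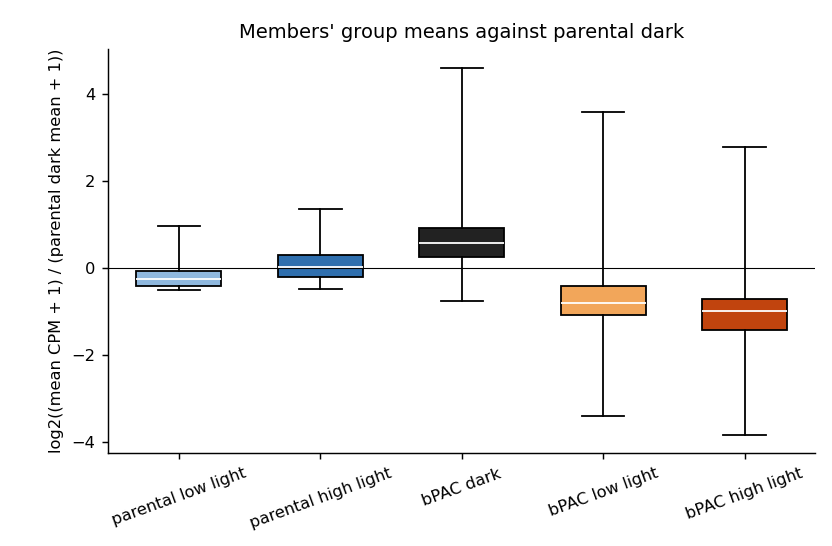
Group means of the 116 members against the parental dark mean, as log2((mean CPM + 1) / (parental dark mean + 1)); boxes span the quartiles with the median as a white line and whiskers the lowest and highest member. The bPAC dark box lies above 0 (median 0.58) and both illuminated bPAC boxes below 0 (medians -0.80 and -0.98).

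Across the 18 libraries most members correlated with their common mean, which the rule itself favours. The correlation of a member's log2 CPM with the mean of all members had a median of 0.845 and ranged from 0.0471 to 0.966, with 77 members above 0.8 and 3 below 0.5. The lowest belonged to ENSCAFG00000015333, the gene nearly absent from parental cells. These values are a description over libraries that share groups, each member being part of the mean it is compared with. The rule chose every member for lower means in the same bPAC light groups. No share over other genes was made, and nothing is read from these correlations. Of genes outside the set, ENSCAFG00000007172 (r = 0.970 over 18 libraries) and ENSCAFG00000018191 (r = 0.968) were most like it. Both were lowered in bPAC cells, with L of -1.77 and -1.95 and of -2.13 and -2.54, and both missed membership at parental low light, with L of -0.71 and -0.55.

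Set beside the 306 genes lowered in both lines, the members were lowered less. The median L was -1.30 against -1.88 at low light and -1.51 against -1.91 at high light, as a description of 2 lists that the same limits separate. The mirror pattern was found for 6 genes. It asks for an L of 1 or more at both doses in bPAC cells and a parental L below 0.5 at both. CPM put L lower than TMM in bPAC cells, by 0.12 at low and 0.32 at high light. The limits of 1 and -1 are therefore not alike. In the fitted model, which uses TMM, 1468 of 8530 genes passed as higher and 1541 as lower at low light. At high light 1083 passed as higher and 1014 as lower. No mirror count was made on TMM-scaled levels, and nothing is read from the 6. Parental dark 3 was lowest for most genes of both lists, 80.2% of members and 89.5% of the genes lowered in both lines. The highest library differed. Parental dark 1 was highest for 82.8% of members and 40.5% of the genes lowered in both lines. Parental dark 2 was highest for 15.5% and 59.5%, against 33.5% of all genes past the floor. The limits that separate the 2 lists use these dark libraries, and nothing is read from these shares. Reads aligned to more than 1 place, which are counted for no gene, made up 38.5% to 39.9% of reads in bPAC dark, 37.5% to 40.7% in low light and 41.7% to 44.4% in high light. Their part in the high light values was not tested.

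Membership was least firm with respect to the dark parental libraries. Leaving out 1 library at a time, the rule found between 61 and 191 genes. The lowest number came without parental dark 3, when all 61 were among the 116, and the highest without parental dark 1, when 110 of the 191 were. Without bPAC low light 4 it found 80 genes, 79 of them members. On TMM-scaled levels it found 75, of which 67 were members. Of the 116, 81 stayed members in at least 15 of the 18 settings and the least stable in 10.

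A smaller group of 13 members was found whichever library was left out. In all 13, every illuminated bPAC library was below every bPAC dark library, as in 99 of the 116 members and 22.5% of all genes past the floor. The rule selected on these comparisons, and nothing is read from this count. Their bPAC dark means ran from 10.7 to 3236 CPM with a median of 53.1 CPM, and their median L was -1.30 at low and -1.65 at high light in bPAC cells and -0.06 and 0.17 in parental cells. This group includes ENSCAFG00000020276, ENSCAFG00000006521 and ENSCAFG00000015190, and also ENSCAFG00000005530 and ENSCAFG00000030217. ENSCAFG00000005530, named after its values were seen, measured 49.0, 30.7 and 32.7 CPM in bPAC dark, 7.24, 19.3, 18.9 and 8.19 CPM in low light and 8.11, 4.44 and 5.69 CPM in high light. Its parental libraries held 35.4, 19.9 and 11.4 CPM in the dark, 24.3, 30.8 and 27.0 CPM in low light and 27.6 and 32.2 CPM in high light, so no illuminated bPAC library reached the lowest illuminated parental one. The 2 members with the lowest L, ENSCAFG00000029442 and ENSCAFG00000001254, were found in 15 and 17 of the 18 settings. Over all 116, the coefficient of variation of the median member in parental dark was 0.415.

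**Figure D5:**
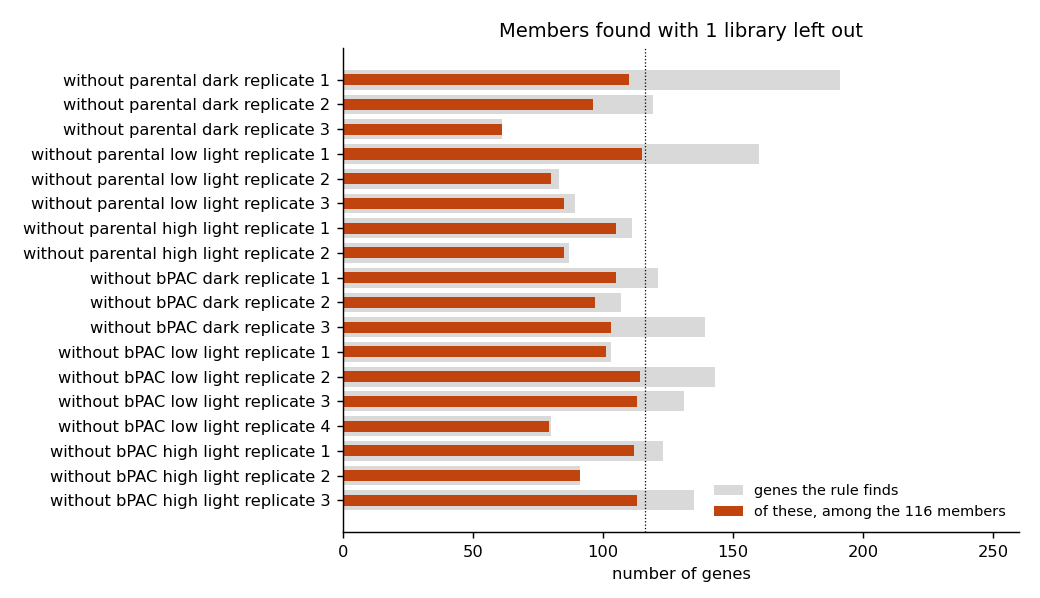
Number of genes the rule finds with each library left out (grey bars) and how many of them are among the 116 members (orange bars); the dotted line marks 116. The 2 extremes are 191 genes without parental dark 1 and 61 without parental dark 3.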

How the data were processed

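Expression was measured in 18 libraries, 8 of parental and 10 of bPAC cells. RNA was prepared with Lexogen's SPLIT kit and sequenced from transcript 3' ends with its QuantSeq FWD kit, per the labels' protocols, so counts are not scaled by transcript length. For each library the authors deposited raw read counts for 32220 gene IDs. The 5 further rows that name no gene entered neither library sizes nor tests. Per the submitters' processing notes the genome was CanFam3.1. Which aligner, counter and annotation release were used: not given in the sources used here.

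Groups were taken from the labels. Changes L were computed from CPM group means with a pseudocount of 1 CPM. The members, the gene lists and the tests were chosen with earlier results of these data known. Tests used edgeR 4.0.16 in R 4.3.3 (glmQLFit with robust estimation, glmQLFTest) on all 18 libraries in 1 model of 6 groups, with TMM scaling, filterByExpr at a minimum count of 10, and Benjamini-Hochberg adjustment over 8530 genes at 0.05. The SE was taken from the size of the log2 fold change and the F statistic of the same test. All 116 members passed the filter. For comparisons that the rule used, and for the dark groups that are its references, counts of genes past the threshold are given beside their share of all genes as a description and are not used as tests. The comparisons between doses carry a limit as well, since the rule bounded each of their groups against the dark. Alternatives were DESeq2 1.42.0, limma-voom (limma 3.58.1), other filters, scalings, pseudocounts and floors, group medians, fits restricted to the compared groups, and fits or means without 1 library at a time. Leaving out pairs of low light libraries was chosen after seeing the data. The edgeR fit was tested on simulated counts, for the comparison of bPAC high with bPAC low light only.

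Members named were the 2 with the lowest mean L over both doses in bPAC cells, the 2 with the highest bPAC dark mean, up to 2 per direction and tested comparison, and the 2 genes outside the set most like it. Other names are marked where they appear. The IDs were matched to the reference table for 0 of 32220 genes, so symbols, gene lists, cell type markers and sequences were not used here. All 19 pairs of libraries of the same group differed by more than sampling noise (chi-square over its degrees of freedom from 8.43 to 63.9), and each library counted as a replicate.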

Additional observations from a re-analysis of the deposited data

Results flagged for a closer look

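In 3 members every illuminated bPAC library lay below the bPAC dark mean and every illuminated parental library above the parental dark mean. The rule selected on these changes, and the difference between the lines was not tested as a finding. ENSCAFG00000020276 had L of -1.85 at low and -3.34 at high light in bPAC cells and 0.65 and 0.67 in parental cells. ENSCAFG00000005530 had -1.42 and -2.44 in bPAC cells and 0.29 and 0.41 in parental cells. ENSCAFG00000032377 had -1.12 and -1.20 in bPAC cells and 0.57 and 0.65 in parental cells. For each of the 3 the parental dark mean lies between parental dark 1, at 5497, 35.4 and 48.7 CPM, and the other dark libraries, which are lower. ENSCAFG00000032377 measured 20.1, 50.7, 37.8 and 2.49 CPM in the bPAC low light libraries against 75.5, 47.4 and 61.5 CPM in bPAC dark, so these groups overlapped.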

How the results depend on the processing

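The number of genes the rule finds was 116 and came to 75 on TMM-scaled levels, 47 without bPAC low light 1 and 4, 176 without bPAC low light 2 and 3, and 61 to 191 with 1 library left out. It stayed within 1.5 times the main count with other pseudocounts, floors or group medians, but the genes found were not all the same. A pseudocount of 5 CPM gave 95 genes, 72 of them among the 116, and group medians gave 123, with 85 of them. A pseudocount of 0.5 CPM gave 125, with 111 of the 116. Floors of 5 and 20 CPM gave 136 and 92, with 116 and 92 of them. The count of members called between high and low light in bPAC cells was 1, where 871 of all 8530 genes tested were called. It became 2 with DESeq2 (1020 of 8530 over all) and 2 with a filter at a mean of 5 CPM (872 of 6378). With no filter on low counts it was 13 (951 of 16648 over all). These were 5 higher and 8 lower, where the main count was 0 higher and 1 lower. With only the bPAC light groups it was 0 (273 of 7589 over all). With 1 library left out it was 1 to 2, where 189 to 899 genes were called over all. The call of ENSCAFG00000006521 held in all 18 fits without 1 library (adjusted p from 0.00101 to 0.0371). The count between the lines in the dark was 4, where 557 of all 8530 genes tested were called. It became 15 with DESeq2 (704 of 8530 over all) and 12 with limma-voom (556 of 8530). With no filter it was 33, 32 higher and 1 lower (864 of 16648 over all). With only the dark groups it was 7 (441 of 7508 over all), and with 1 library left out 2 to 31. It was 31 without parental dark 1 (720 of 8480 over all) and 8 without bPAC low light 4 (689 of 8478). It was 2 without parental dark 2, parental dark 3, parental low light 1, bPAC dark 1, bPAC dark 2, bPAC high light 1 or bPAC high light 3. In these fits 224 to 568 genes were called over all. In parental cells the count between the doses was 0, 2 with no filter (52 of 16648 over all), and 0 in every fit without 1 library. No gene followed singly here (ENSCAFG00000006521, ENSCAFG00000015333 and ENSCAFG00000003467) changed sign. For ENSCAFG00000015333 and ENSCAFG00000003467 this is the contrast of the dark groups, which is a description only. The causes were not tested. No paired analysis was possible because the labels give no replicate numbers, and those used here only follow the order of deposition. Reads of the median member limit the precision of each level, with 42 to 122 per library in illuminated bPAC cells, 133 to 222 in dark ones and 66 to 428 in the parental line.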
